A study of Mus musculus with 2 samples.

Results

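Immunity-related GTPases are a family of interferon-inducible proteins of the mouse, and 7 of their genes, namely Iigp1, Igtp, Irgm1, Irgm2, Tgtp1, Tgtp2 and Ifi47, were followed here. They were chosen by symbol, and all 7 were listed once among the 27998 genes of each of 2 single-cell libraries. The libraries, named Cherry_positive and Cherry_negative, hold lung cells lacking CD45, the surface protein of leukocytes, sorted from dissociated mouse lungs 7 days after intravenous injection of labelling-4T1. 4T1 is a mouse mammary carcinoma line, and its labelling form is known to secrete a cell-penetrating mCherry protein that nearby cells take up. The Cherry_positive group is therefore 1 library of CD45- lung cells sorted as carrying Cherry, and the Cherry_negative group is 1 library of CD45- lung cells sorted as lacking it. Both come from lungs that received tumour cells, so neither describes a lung without them. No source used here gives the strain, age or number of mice, the gates, or any label carried by the tumour cells themselves.

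The family belongs to cell-autonomous immunity, the defence that a cell mounts inside itself. Interferon gamma, acting through the receptor subunits Ifngr1 and Ifngr2, the kinases Jak1 and Jak2 and transcription factors such as Irf1, is its classical inducer, and type I interferons raise several members too. Iigp1, Tgtp1, Tgtp2 and Ifi47 are counted among the effectors, which load onto the vacuoles of parasites such as Toxoplasma and break them open, while Irgm1, Irgm2 and Igtp are the regulators, which sit on the cell's own membranes and keep effectors inactive there.

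All members apart from Iigp1 lie on chromosome 11, by the GENCODE M21 annotation of GRCm38. Irgm1 (minus strand, 48861968 to 48871683), Tgtp1 (minus, 48985327 to 48994172), Tgtp2 (minus, 49057194 to 49064206) and Ifi47 (plus, 49076587 to 49096974) form one cluster of neighbours. Igtp (plus, 58199556 to 58207591) and Irgm2 (plus, 58199618 to 58222782) form another and overlap on the same strand, so their reads could be shared. Tgtp1 and Tgtp2 are near-identical copies: 2804 of 2823 aligned bases of their longest transcripts were the same (99.3%), and so were all 500 of the last 500 bases, where a 3′ library reads. The split of reads between these copies is therefore uncertain, and their sum is given beside each. Tgtp1, Tgtp2 and Ifi47 also overlap the annotated gene Olfr56, and Tgtp1 overlaps Gm12185 on its own strand.

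The stretches of promoter shown here hold the interferon response letters found upstream of the RefSeq start of 5 of the members. RefSeq promoter sequences of GRCm38.p6, which run from 250 bases before to 50 after each gene's RefSeq start, were found for 6 members and not used for Iigp1. The stretches of Irgm1, Tgtp1 and Irgm2 lie inside the GENCODE genes given above, since the annotations place their starts differently. From its RefSeq start Irgm2 begins beyond the end of Igtp, so their overlap rests on the GENCODE form. They were searched on both strands for GAAA repeated after a gap of 2 bases, the core of the interferon-stimulated response element, and for TTCNNNGAA, the core of the gamma-activated site. Capitals mark the matches in the 60 bases around them, written 5′ to 3′ along the gene's own strand.
Irgm1, chr11:48871421-48871480, minus strand: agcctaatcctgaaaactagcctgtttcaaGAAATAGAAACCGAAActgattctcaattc
Tgtp1, chr11:48992294-48992353, minus strand: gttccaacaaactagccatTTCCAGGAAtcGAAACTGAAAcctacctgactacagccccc
Tgtp2, chr11:49064253-49064312, minus strand: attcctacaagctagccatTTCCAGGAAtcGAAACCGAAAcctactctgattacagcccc
Igtp, chr11:58199492-58199551, plus strand: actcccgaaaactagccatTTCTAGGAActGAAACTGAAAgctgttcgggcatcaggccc
Irgm2, chr11:58214883-58214942, plus strand: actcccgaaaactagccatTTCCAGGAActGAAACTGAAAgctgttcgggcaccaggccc
In Tgtp1, Tgtp2, Igtp and Irgm2 a gamma-activated core stood 2 bases before an interferon-stimulated core in the same order. Irgm1 held 2 overlapping interferon-stimulated matches and no gamma-activated match, and the Ifi47 window held neither. Of all 32851 mouse promoters searched the same way, 1131 (3.44%) held the interferon-stimulated core, 2726 (8.30%) held TTCNNNGAA and 149 (0.454%) held both. A match of letters is a description and not evidence of binding. Over the full 300 bases, the Igtp and Irgm2 promoters were 72.8% identical and those of Tgtp1 and Tgtp2 were 66.3% identical.

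The Cherry_positive library held 1826 barcodes and 10094853 unique molecular identifiers (UMIs, 1 per captured RNA molecule), and the Cherry_negative library held 2861 barcodes and 11632459 UMIs. After filtering, 1766 Cherry_positive cells with a median of 4348 UMIs and 2804 Cherry_negative cells with a median of 3000 were kept. The libraries shared 13 barcodes. Ptprc, which encodes CD45, had a UMI in 1.42% of Cherry_positive and 0.785% of Cherry_negative cells. Cells were clustered jointly without the 7 genes, and classes were named from marker genes. Other interferon-inducible genes were not kept out of this clustering. With 1 library in each group, differences carry no test: intervals are exact 95% intervals that cover counting error only, and the spread between lungs is unknown. Intervals of levels and ratios take the UMIs of a class as independent, so the spread between its cells is not covered either. Intervals that do not overlap are therefore a description.

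Levels are given in CPM, counts of a gene scaled to the total UMIs of all cells in a class (counts per 1000000 UMIs). Because a 3′ library counts each molecule once, no scaling for gene length was applied. Among the 7 Cherry_positive classes with at least 50 cells, the summed level of the 7 genes was highest in pericytes, the contractile cells that wrap capillaries, at 4900.1 CPM (4615 to 5199). Myofibroblasts at 2389 CPM, alveolar fibroblasts at 2379 CPM and general capillary cells at 2277 CPM came next, with overlapping intervals. Adventitial fibroblasts stood at 889 CPM, the carcinoma-like cluster at 587 CPM and Car4 capillary cells, the large capillary cells of gas exchange, at 313 CPM, each apart from its neighbours in that order.

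In the Cherry_negative library, 10 classes could be ranked. Pericytes at 1196 CPM and general capillary cells at 1002 CPM were highest and did not differ beyond their intervals. Alveolar fibroblasts followed at 634 CPM, venous endothelial cells at 611 CPM, myofibroblasts at 464 CPM, Car4 capillary cells at 375 CPM, arterial endothelial cells at 364 CPM and adventitial fibroblasts at 273 CPM, where neighbours overlapped at each step. The alveolar epithelium was lowest: the surfactant-secreting AT2 cells had 140.4 CPM (129 to 153) and the flat AT1 cells 42.2 CPM (19.3 to 80.2).

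**Figure D1:**
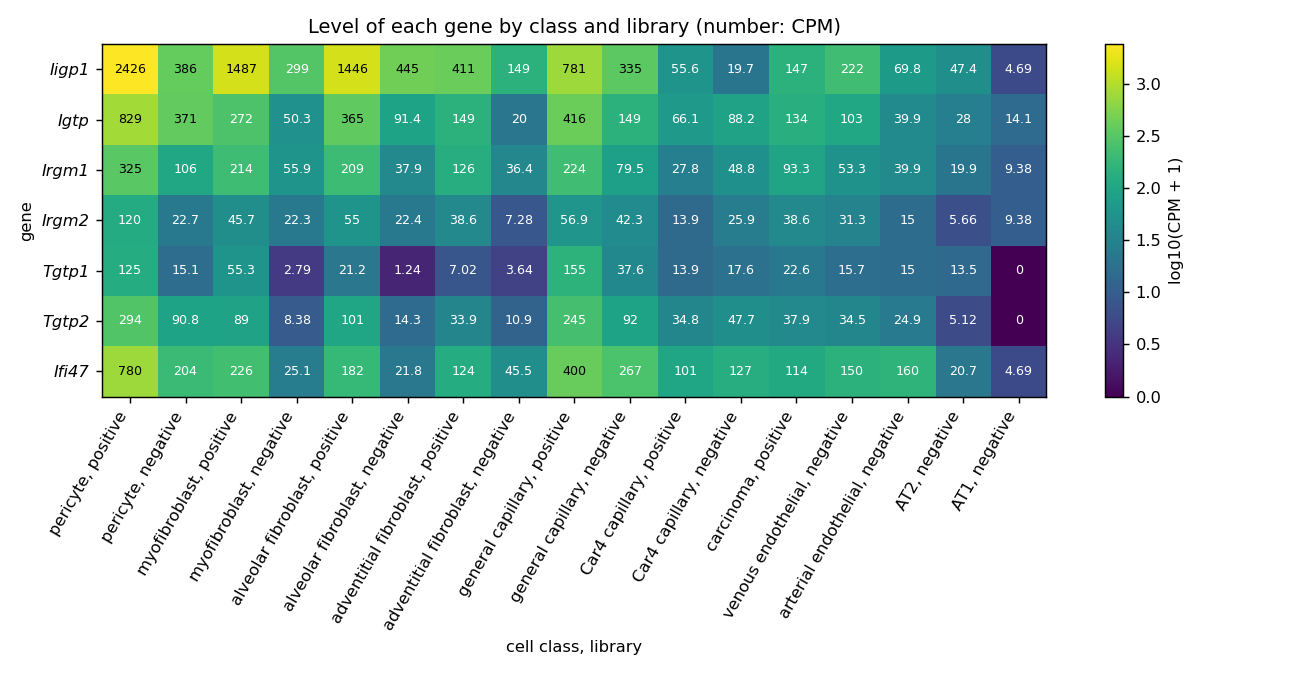
Level of each of the 7 genes (rows) in each class of at least 50 cells, by library (columns); colour gives log10(CPM + 1) and the number in each cell gives CPM. The Cherry_positive pericyte column holds the highest Iigp1 level, 2426 CPM, and the Cherry_negative AT1 column the lowest, 4.69 CPM.

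The members did not share one order of classes. Iigp1, on chromosome 18 (plus strand, 60376027 to 60392634), had 2426 CPM in Cherry_positive pericytes, 1487 CPM in myofibroblasts and 1446 CPM in alveolar fibroblasts. Cherry_positive general capillary cells followed at 781 CPM, above adventitial fibroblasts at 411 CPM, the carcinoma-like cluster at 147 CPM and Car4 capillary cells at 55.6 CPM. In the Cherry_negative library Iigp1 stood at 445 CPM in alveolar fibroblasts, 386 CPM in pericytes, 335 CPM in general capillary cells and 299 CPM in myofibroblasts, with overlapping intervals between neighbours in that order. At the low end were Car4 capillary cells at 19.7 CPM and AT1 cells at 4.69 CPM, whose intervals overlapped. Ifi47, an effector whose action is less well described, took another order in the Cherry_negative library. There it was highest in general capillary cells at 267 CPM, pericytes at 204 CPM, arterial endothelial cells at 159.5 CPM, venous endothelial cells at 150.4 CPM and Car4 capillary cells at 127 CPM. All 3 fibroblast classes lay at 45.5 CPM or lower for Ifi47, and their intervals did not reach those of the endothelial classes. The summed Tgtp copies followed a similar course, with 129.6 CPM in Cherry_negative general capillary cells against 15.5 CPM in alveolar fibroblasts.

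The first comparison asked how the members differed between Cherry_positive and Cherry_negative cells of the same class, and alveolar fibroblasts, the fibroblasts of the gas-exchange walls, gave the deepest counts. There all 7 members were at least 2-fold higher in 866 Cherry_positive than in 469 Cherry_negative cells, where 6.7% of the 11460 genes measured were. Their summed level was 2379 CPM in Cherry_positive and 634 CPM in Cherry_negative cells, a ratio of 3.75 (3.52 to 4.01).

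Among the effectors, Iigp1 had 6603 UMIs (1446 CPM) in Cherry_positive and 715 UMIs (445 CPM) in Cherry_negative alveolar fibroblasts, a ratio of 3.25 (3.01 to 3.52). Ifi47 had 831 UMIs (182 CPM) in Cherry_positive and 35 UMIs (21.8 CPM) in Cherry_negative cells, a ratio of 8.36 (5.96 to 12.1). Tgtp1 and Tgtp2 together had 559 UMIs (122 CPM) in Cherry_positive and 25 UMIs (15.5 CPM) in Cherry_negative cells, a ratio of 7.87 (5.28 to 12.3). Over the whole class the intervals of Ifi47 and of the Tgtp copies lay above that of Iigp1, so the most abundant effector differed by the smaller factor there. This order did not hold in every cluster of the class, as given below. Counted singly, Tgtp2 had a ratio of 7.07 (4.65 to 11.3) and Tgtp1, from 97 Cherry_positive and 2 Cherry_negative UMIs, one of 17.1 (4.60 to 143).

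Among the regulators, Igtp, a membrane-bound member also known for its place on lipid droplets, had 365 CPM in Cherry_positive and 91.4 CPM in Cherry_negative alveolar fibroblasts, a ratio of 3.99 (3.37 to 4.76). Irgm1, the regulator linked to lysosomes and mitochondria, had 209 CPM in Cherry_positive and 37.9 CPM in Cherry_negative cells, a ratio of 5.52 (4.26 to 7.27). Irgm2, a regulator found at the Golgi, had 55.0 CPM in Cherry_positive and 22.4 CPM in Cherry_negative cells, a ratio of 2.45 (1.73 to 3.58). Irgm2 had the smallest ratio of the 7 in these cells, and its interval overlapped those of Iigp1 and Igtp.

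Pericytes were fewer, 62 Cherry_positive and 51 Cherry_negative cells. All 7 members were at least 2-fold higher in Cherry_positive pericytes, against 8.4% of 5073 genes. Iigp1 had 544 UMIs (2426 CPM) in Cherry_positive and 51 UMIs (386 CPM) in Cherry_negative pericytes, a ratio of 6.28 (4.71 to 8.55), whose interval lay above that of alveolar fibroblasts. Igtp had 829 CPM in Cherry_positive and 371 CPM in Cherry_negative pericytes, a ratio of 2.24 (1.62 to 3.13), whose interval lay below that of alveolar fibroblasts. A single cell held 10.2% of the Igtp UMIs of the Cherry_positive pericytes, and a single cell held 59.2% of those of the Cherry_negative pericytes. Without the pericyte with most family UMIs in each library the Igtp ratio was 4.85, so its place as the smallest of the 7 ratios rests on those cells. Markers of other cells also differed: the 5 pan-endothelial markers summed to 93.6 CPM in Cherry_positive and 1574 CPM in Cherry_negative pericytes, with Tie1 at 0 in the Cherry_positive cells, and their part in these ratios was not tested.

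In 243 Cherry_positive and 132 Cherry_negative myofibroblasts, matrix-forming cells of airway and alveolar duct walls, the summed level was 2389 CPM and 464 CPM, a ratio of 5.15 (4.41 to 6.06). At least 2-fold higher were 6 of the 7 members, against 7.55% of 8796 genes. The exception was Irgm2, with 57 Cherry_positive and 8 Cherry_negative UMIs, whose ratio of 2.04 (0.970 to 4.96) fell just below 2-fold once 0.5 was added to each count. Ifi47 had 226 CPM in Cherry_positive and 25.1 CPM in Cherry_negative myofibroblasts, a ratio of 8.99 (4.67 to 19.9), and the summed Tgtp copies had 144 CPM and 11.2 CPM, a ratio of 12.9 (4.96 to 47.9). A single cell held 25.3% of the Cherry_negative UMIs of the 7 genes in this class, and without the highest cell of each library the ratio was 6.48.

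In adventitial fibroblasts, which surround vessels and airways, the summed level was 889 CPM in 128 Cherry_positive cells and 273 CPM in 113 Cherry_negative cells, a ratio of 3.26 (2.73 to 3.91). Here 6 members were measured with at least 10 UMIs and all 6 were at least 2-fold higher, against 5.26% of 8776 genes. Tgtp1, with 6 Cherry_positive and 2 Cherry_negative UMIs, was below the minimum. Igtp had the largest ratio, 7.42 (4.01 to 15.2), with 127 UMIs in Cherry_positive and 11 UMIs in Cherry_negative cells, while Iigp1 stood at 411 CPM and 149 CPM, a ratio of 2.75 (2.16 to 3.54).

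General capillary cells, the endothelial cells that maintain the capillary bed, showed a smaller difference, with 2277 CPM in 131 Cherry_positive cells and 1002 CPM in 990 Cherry_negative cells, a ratio of 2.27 (2.12 to 2.43). At least 2-fold higher were 5 of the 7 members, against 4.93% of 10099 genes. Iigp1 had 781 CPM in Cherry_positive and 335 CPM in Cherry_negative cells, a ratio of 2.33 (2.07 to 2.63), and the summed Tgtp copies had 400.2 CPM and 129.6 CPM, a ratio of 3.09 (2.59 to 3.68). Irgm2 had a ratio of 1.34 (0.862 to 2.03) and Ifi47 one of 1.50 (1.28 to 1.75), so that Ifi47, which had among the larger ratios in alveolar fibroblasts, had among the smaller ones here. The Ifi47 intervals of these classes did not overlap.

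In Car4 capillary cells the family was not detectably higher at this depth. Their summed level was 313 CPM in 80 Cherry_positive cells and 375 CPM in 309 Cherry_negative cells, a ratio of 0.835 whose interval of 0.655 to 1.05 held 1. Only Iigp1 was at least 2-fold higher, against 5.31% of 8217 genes, at 16 Cherry_positive and 19 Cherry_negative UMIs and a ratio of 2.82 (1.36 to 5.79). The other 6 members had ratios between 0.536 and 0.796, each with an interval that held 1. Iigp1 stood at 55.6 CPM in Cherry_positive Car4 cells and at 20.2 CPM, from 2 UMIs, in the 13 Cherry_positive cells of the ciliated and club cluster. When 5% of UMIs were taken as free RNA of the library's mean profile the Iigp1 ratio turned to 0.354, and with 3 other ways of clustering the summed ratio was between 1.25 and 1.34.

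**Figure D2:**
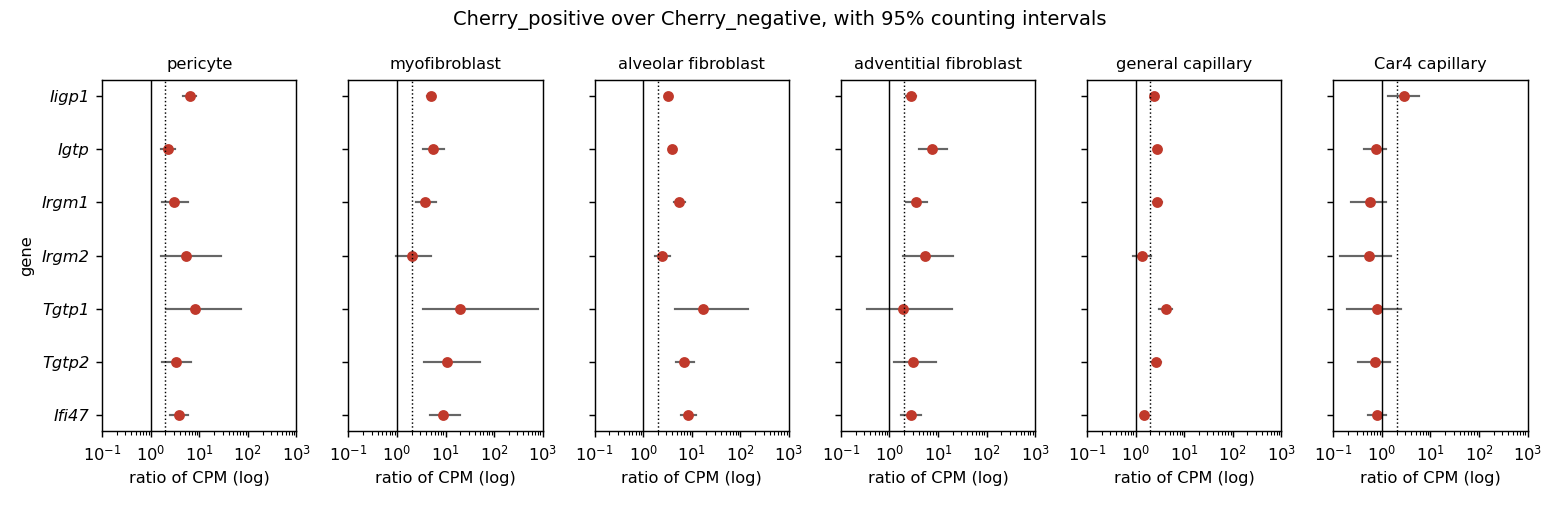
Ratio of CPM in Cherry_positive over Cherry_negative cells for each of the 7 genes (rows) in the 6 compared classes (panels), on a log axis; points are ratios, bars exact 95% counting intervals, the solid line marks 1 and the dotted line 2. Points lie right of the dotted line for most genes in the 4 mesenchymal classes and left of the solid line for 6 of 7 genes in Car4 capillary cells.

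Other RNA moved between the libraries in the same classes. The 9 AT2 markers, led by surfactant genes, summed to between 165 and 216 CPM in the 6 Cherry_positive classes and between 1653 and 2414 CPM in the Cherry_negative ones. The 6 erythroid markers summed to 5785 CPM in Cherry_positive and 16.2 CPM in Cherry_negative general capillary cells, and to 9338 CPM and 32.2 CPM in Car4 capillary cells; in the 4 mesenchymal classes they summed to between 145 and 155 CPM in Cherry_positive and to 23.7 CPM or less in Cherry_negative cells. The 5 pan-endothelial markers summed to between 40.1 and 76.0 CPM in the 3 Cherry_positive fibroblast classes and to between 237 and 422 CPM in the Cherry_negative ones. The 10 macrophage or monocyte markers summed to between 22.3 and 73.0 CPM in the 6 Cherry_positive classes and to between 151 and 230.4 CPM in the Cherry_negative ones, with Adgre1 and Chil3 at 0 in all of them. From 2 to 8 of these 10 were at 0 in the Cherry_positive classes and from 5 to 8 in the Cherry_negative ones. Lyz2, another of the 10, was also a leading gene of the AT2 cluster, so these sums need not be macrophage RNA. The 5 leukocyte markers summed to 26.8 CPM or less in every compared class of both libraries, at 3.94 CPM in Cherry_positive and 8.71 CPM in Cherry_negative alveolar fibroblasts and at 7.85 CPM and 4.42 CPM in general capillary cells. The 10 carcinoma markers summed to 1025 CPM in Cherry_positive and 200.3 CPM in Cherry_negative alveolar fibroblasts, where Cldn4 was at 0 in both and the 5 pan-epithelial markers summed to 12.3 CPM and 8.71 CPM. Krt8, Krt18 and Epcam stand in both of the last lists, so most of the carcinoma sum came from its other markers. The part of the RNA of all these marker lists in the ratios was not tested, and neither was its cell of origin.

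Which clusters made up a class differed between the libraries. Of the Cherry_positive alveolar fibroblasts, cluster 2 held 13.7%, cluster 5 held 37.2%, cluster 7 held 24.8% and cluster 9 held 24.1%, and of the Cherry_negative ones these clusters held 68.9%, 6.61%, 20.3% and 0.853%. Cluster 9 was led by the interferon-inducible genes Fam26f, Cxcl10, Cxcl9 and Rsad2, and cluster 5 by the matrix gene Tnc and the secreted inhibitor Fst. Neither had an alveolar fibroblast marker among its 10 leading genes, so their class rests on the levels of that class's markers, of which 6 and 8 were detected.

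Among these clusters the 7 genes were highest in cluster 9, at 5268 CPM (5142 to 5396) in 209 Cherry_positive cells, and only 4 Cherry_negative cells fell there. Since other interferon-inducible genes could place the cells, neither this level nor the ratios within clusters are independent of the clustering. Iigp1 alone reached 2978 CPM in the Cherry_positive cells of cluster 9, and Igtp reached 901 CPM. Within cluster 2 the summed level was 1093 CPM in 119 Cherry_positive and 582 CPM in 323 Cherry_negative cells, a ratio of 1.88 (1.66 to 2.12). Within cluster 7 it was 1018 CPM in Cherry_positive and 410.1 CPM in Cherry_negative cells, a ratio of 2.48 (2.11 to 2.93), and within cluster 5 it was 1491 CPM and 1202 CPM, a ratio of 1.24 (1.03 to 1.51). Over the class without clusters 5 and 9 the ratio was 1.93, so the difference within these clusters was smaller than that of the whole class. Iigp1 stayed higher in Cherry_positive cells of clusters 2, 5 and 7, with ratios of 1.86 (1.61 to 2.14), 1.28 (1.02 to 1.65) and 2.37 (1.96 to 2.89). Igtp differed among them, with a ratio of 4.61 (2.42 to 9.86) in cluster 7 and one of 0.782 (0.517 to 1.24) in cluster 5.

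General capillary cells divided in a similar way. Cluster 12, led by AA467197, Ido1, Ubd and Wars, of which Ido1, Ubd and Wars are known interferon gamma targets, held 34 cells or 26.0% of the Cherry_positive class and 69 cells or 6.97% of the Cherry_negative class. Within it the summed level was 5523 CPM in Cherry_positive and 5170.2 CPM in Cherry_negative cells, a ratio of 1.07 (0.972 to 1.17). Clusters 0 and 6 had ratios of 1.46 (1.23 to 1.73) and 1.04 (0.864 to 1.24), and without cluster 12 the class ratio was 1.25. Within cluster 12 Iigp1 had 2032 CPM in Cherry_positive and 2065 CPM in Cherry_negative cells, and the summed Tgtp copies had 957 CPM and 642 CPM, a ratio of 1.49 (1.16 to 1.92).

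**Figure D3:**
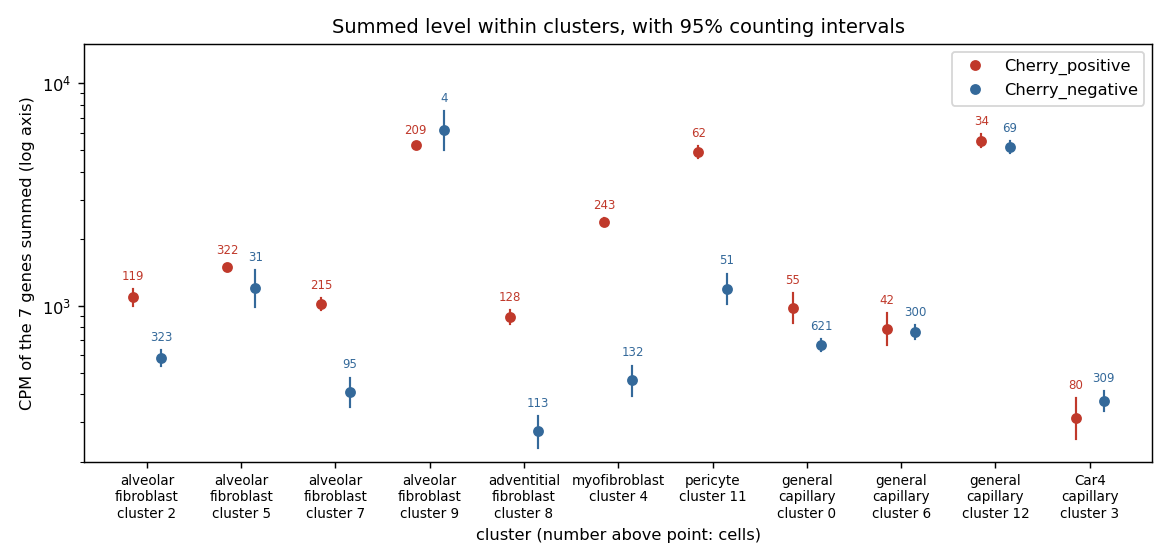
Summed CPM of the 7 genes (log axis) within clusters of the compared classes, Cherry_positive in red and Cherry_negative in blue. Bars are exact 95% counting intervals and numbers above points are cells. Cluster 20 of the alveolar fibroblasts, with 1 Cherry_positive and 16 Cherry_negative cells, is not drawn. Cherry_positive cells of cluster 9 (5268 CPM), cluster 12 (5523 CPM) and the pericyte cluster (4900.1 CPM) stand highest; Cherry_negative cells of cluster 12 reach 5170.2 CPM and Cherry_negative pericytes 1196 CPM.

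The make-up of the family's RNA differed between classes. Iigp1 gave 60.8% of the 7 genes' UMIs in Cherry_positive and 70.2% in Cherry_negative alveolar fibroblasts, 62.2% and 64.5% in myofibroblasts, 46.2% and 54.7% in adventitial fibroblasts and 49.5% and 32.3% in pericytes. Its share of the general capillary UMIs was 34.3% for Cherry_positive and 33.4% for Cherry_negative cells, and in Car4 capillary cells 17.8% and 5.26%. Ifi47 held 32.2% of the UMIs in Cherry_positive and 33.8% in Cherry_negative Car4 capillary cells, against 7.65% and 3.44% in alveolar fibroblasts. It held 43.8% in Cherry_negative arterial endothelial cells, where it was the leading member. The summed Tgtp copies held 17.6% in Cherry_positive and 12.9% in Cherry_negative general capillary cells, against 5.14% and 2.45% in alveolar fibroblasts.

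**Figure D4:**
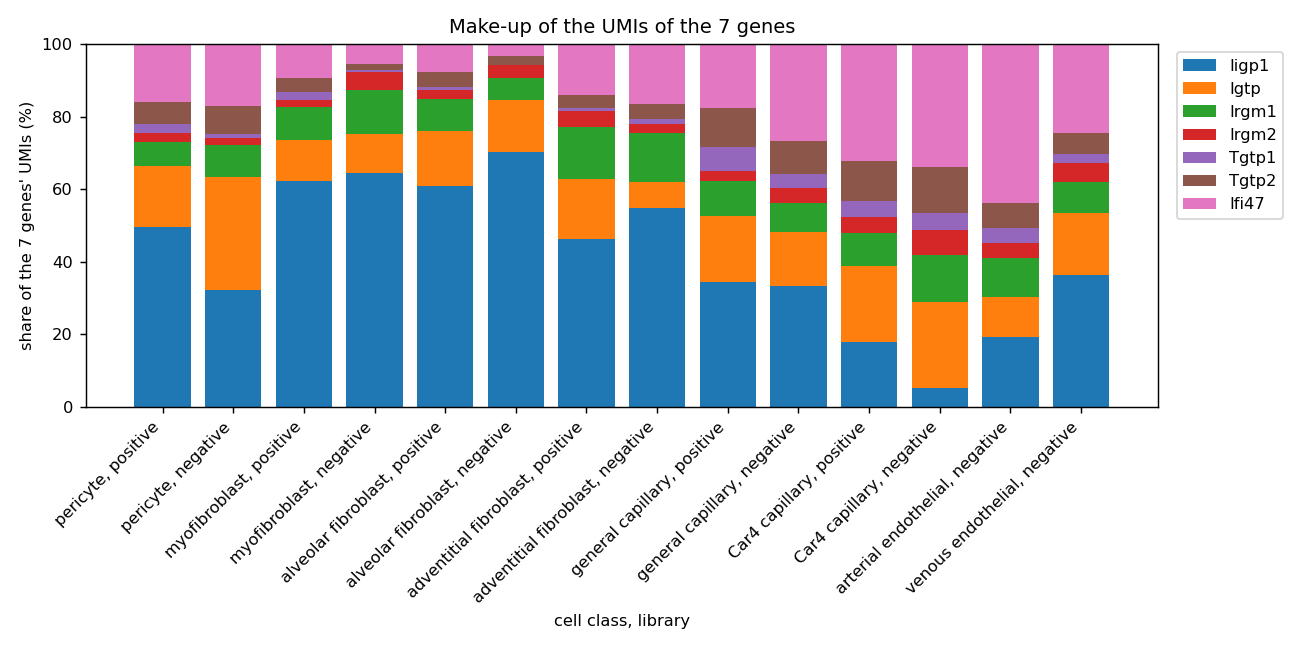
Share (%) of the UMIs of the 7 genes that each gene holds, by class and library, Cherry_positive left of Cherry_negative within a class; each bar sums to 100%. Iigp1 fills more than 60% of the alveolar fibroblast and myofibroblast bars and 17.8% or less of the Car4 capillary bars.

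Members were also seen together in single cells. After each cell was thinned to 2000 UMIs, at least 3 different members had a UMI in 65% of 60 Cherry_positive and 18.5% of 27 Cherry_negative pericytes (intervals 51.6 to 76.9% and 6.30 to 38.1%). In alveolar fibroblasts 27.7% of 848 Cherry_positive and 4.18% of 407 Cherry_negative cells did so, and in general capillary cells 37.9% of 124 and 16.2% of 622. In Car4 capillary cells the shares were 1.30% of 77 Cherry_positive and 4.07% of 221 Cherry_negative cells, with overlapping intervals. Cells with fewer than 2000 UMIs were left out, 2 Cherry_positive and 24 Cherry_negative pericytes, 18 and 62 alveolar fibroblasts, 7 and 368 general capillary cells and 3 and 88 Car4 capillary cells, so the pericyte share rests on 27 of the 51 Cherry_negative cells.

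The family's UMIs were not even over cells in either library. No member had a UMI in 31.0% of thinned Cherry_positive and 59.0% of thinned Cherry_negative alveolar fibroblasts. Over all cells of the class and before thinning, the 10% of cells with most held 46.1% and 65.8% of the family's UMIs. The depth of each cell also enters these last shares. In cluster 9, 75% of 204 Cherry_positive cells had at least 3 members and 1.47% had none. In cluster 12 at least 3 members were seen in all 34 Cherry_positive cells and in 81.8% of 44 Cherry_negative ones.

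Cells with Iigp1 more often held Igtp and Irgm1 in alveolar fibroblasts and general capillary cells of both libraries. Of thinned Cherry_positive alveolar fibroblasts, Igtp had a UMI in 46.3% of the 536 cells with Iigp1 and 8.97% of the 312 without it, Irgm1 in 35.3% and 4.49%, and Ifi47 in 30.4% and 2.56%. In Cherry_negative alveolar fibroblasts Igtp was seen in 20.9% of 134 cells with Iigp1 and 4.40% of 273 without it, whereas the intervals overlapped for Irgm2 (5.22% and 1.83%) and Tgtp1 was seen in neither kind of cell. In Cherry_negative general capillary cells Ifi47 was seen in 52.0% of cells with Iigp1 and still in 26.5% of those without it, more than in fibroblasts lacking Iigp1. Before thinning, Iigp1 had a UMI in 77.4% of Cherry_positive alveolar fibroblasts (median 4511 UMIs), in 2 of 13 Cherry_positive cells of the ciliated and club cluster (15.4%, median 4609 UMIs) and in 1.75% of Cherry_negative AT1 cells (median 3296 UMIs). The values of these epithelial cells measure stray RNA only if the cells make no Iigp1 themselves, which was not tested. Cherry_positive AT1 cells held 13 Iigp1 UMIs among 22 UMIs of the 7 genes.

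**Figure D5:**
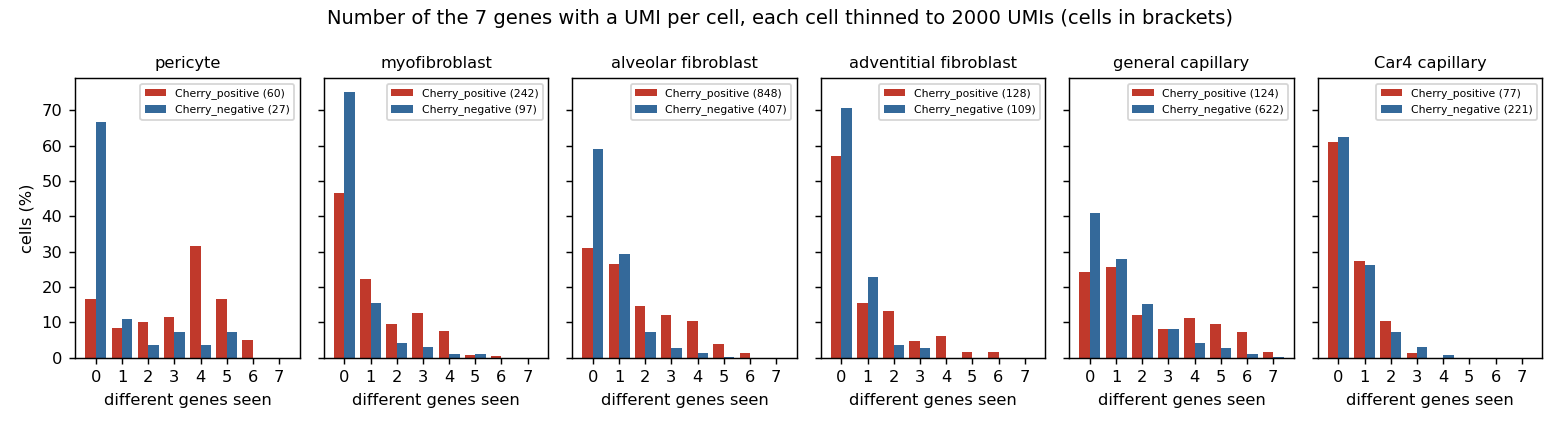
Share of cells (%) by the number of the 7 genes with a UMI, each cell thinned to 2000 UMIs, for the 6 compared classes; Cherry_positive in red, Cherry_negative in blue, cells in brackets. Cherry_positive pericytes peak at 4 genes, whereas Cherry_negative pericytes and both libraries of Car4 capillary cells peak at 0.

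Genes of the pathway that controls the family were read next, from lists of interferon ligands, receptors, signalling factors and inhibitors. The ligands were almost absent: Ifng, the gene of interferon gamma, had 1 UMI in 1766 Cherry_positive cells, in a cluster of lymphocyte markers, and 1 UMI in 2804 Cherry_negative cells. Ifnb1, Ifna1, Ifna2, Ifna4, Ifna5, Ifnl2 and Ifnl3 had 0 UMIs in both libraries, which allows up to 3 counts of each per library. Cells with CD45 were sorted out.

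None of the 5 measured receptor genes differed 2-fold in alveolar fibroblasts, where 6.7% of all genes measured were 2-fold higher and 9.94% 2-fold lower. With so few genes this count is near those shares. The median log2 ratio of the receptor genes was -0.04 against -0.10 for all genes. Ifngr1, the ligand-binding chain, had 297 CPM in Cherry_positive and 474 CPM in Cherry_negative alveolar fibroblasts, a ratio of 0.627, while Ifngr2, its signalling partner, had 84.7 CPM and 57.8 CPM, a ratio of 1.46. The type I receptor chains Ifnar1 and Ifnar2 had ratios of 0.980 and 1.06, and Il10rb, the chain shared with interferon lambda, one of 0.883. Ifnlr1, the lambda-specific chain, had 0 UMIs in alveolar fibroblasts of both libraries. In general capillary cells the 5 receptor genes had ratios from 0.778 to 0.941.

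Of 13 measured signalling and transcription factor genes, 5 were at least 2-fold higher in Cherry_positive alveolar fibroblasts and none was 2-fold lower, with a median log2 ratio of 0.64; of all genes measured there 6.7% were 2-fold higher and 9.94% 2-fold lower. Among the 5 the kinase gene Jak2 had a ratio of 2.98. Irf7, a factor of the type I response, and Batf2, an interferon gamma-inducible factor, had ratios of 4.31 and 5.43. Nlrc5, the activator of MHC class I genes, had 45 Cherry_positive UMIs and 1 Cherry_negative UMI. Irf1 did not follow, at 253 CPM in Cherry_positive and 198 CPM in Cherry_negative alveolar fibroblasts, a ratio of 1.27, but it had a ratio of 2.67 in pericytes, at 807 CPM in Cherry_positive and 303 CPM in Cherry_negative cells.

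In general capillary cells 2 of 14 such genes were at least 2-fold higher, against 4.93% of all genes measured. Irf8 had 102 CPM in Cherry_positive and 15.1 CPM in Cherry_negative cells, a ratio of 6.76, and Batf2 had a ratio of 2.64. Irf1 stood at 451 CPM in Cherry_positive and 406 CPM in Cherry_negative cells, a ratio of 1.11.

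Of 7 measured inhibitor genes, 3 were at least 2-fold higher and 2 at least 2-fold lower in Cherry_positive alveolar fibroblasts, against 6.7% and 9.94% of all genes measured. Socs1, the feedback inhibitor of Jak kinases, had a ratio of 3.45, the phosphatase gene Ptpn2 one of 2.59 and Usp18, the brake on the type I receptor, one of 3.89. Socs3, which mainly restrains signalling through gp130 cytokine receptors, was lower, at 272 CPM in Cherry_positive and 588 CPM in Cherry_negative cells, a ratio of 0.463, and so was Pias1, at 0.469. In general capillary cells Socs1 was the one inhibitor past 2-fold, with a ratio of 2.87.

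The guanylate-binding proteins, large interferon-inducible GTPases that join the same vacuoles, went with the family. All 9 measured genes were at least 2-fold higher in Cherry_positive alveolar fibroblasts, with a median log2 ratio of 2.61, against 4 of 8 in general capillary cells, with a median of 1.08. Of all genes measured, 6.7% were at least 2-fold higher in alveolar fibroblasts and 4.93% in general capillary cells. Gbp4 had 369 CPM in Cherry_positive and 19.9 CPM in Cherry_negative alveolar fibroblasts, a ratio of 18.5, and Gbp2b had 396 CPM and 41.7 CPM, a ratio of 9.50. Of the less studied genes with the family's GTPase domain, 5 of 6 measured were at least 2-fold higher in alveolar fibroblasts and 2 of 5 in general capillary cells, against the same shares of all genes. Gm4951 had 74.2 CPM in Cherry_positive and 26.1 CPM in Cherry_negative alveolar fibroblasts, a ratio of 2.84, and Gm4841 had 30.2 CPM and 5.60 CPM, a ratio of 5.40.

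The regulators and effectors need the ATG8 conjugation genes to reach the right membranes. Genes of a list that holds these, the ATG8 genes and other autophagy genes mostly lay within 2-fold. None of 14 passed it in alveolar fibroblasts, against 6.7% of all genes measured that were 2-fold higher and 9.94% that were 2-fold lower. Their median log2 ratio there was -0.10, the same as for all genes. In general capillary cells none was 2-fold higher and 1 of 14 counted as 2-fold lower, against 6.95% of all genes measured. This was Atg10, with 0 Cherry_positive and 27 Cherry_negative UMIs, but a limit of 3 Cherry_positive counts allows a ratio of up to 0.592, so a 2-fold difference was not established at this depth. In Car4 capillary cells 1 of 13 counted as 2-fold lower, against 5.9%, namely Atg7, at 2 Cherry_positive and 21 Cherry_negative UMIs and a ratio of 0.319 whose interval of 0.0363 to 1.31 held 1. Gabarap, an ATG8 protein, had 753 CPM in Cherry_positive and 670.0 CPM in Cherry_negative alveolar fibroblasts.

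The genes whose pattern was most like the summed family were ranked over 17 class-by-library columns of at least 50 cells, by Pearson correlation of log2(CPM + 10) among 10353 genes. The columns share libraries and depth, and classes of both libraries enter, so the values are a description. Gbp2 came first with a correlation of 0.954, then Gbp3 with 0.940, the peptide transporter gene Tap1 with 0.933, Gbp2b with 0.928 and Gbp5 with 0.925. Gbp7, Isg15, Gbp6 and Gm4951 were also among the first 10, with 0.917, 0.916, 0.908 and 0.902, where the symbol Gbp6 belongs to more than one gene ID. Within the family, Irgm1 followed the sum of the other 6 members most closely, at 0.954, followed by Igtp at 0.919. Tgtp1 at 0.731, Ifi47 at 0.787 and Iigp1 at 0.795 followed it least.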

How the data were processed

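For each gene and barcode the deposited files give raw UMI counts, made by the authors from Chromium 3′ libraries that aimed at 50000 reads per cell. Software named in the submitters' processing notes is R 4.0.3, Seurat 4.0.2 and Cell Ranger 2.1.1, and the build is mm10; no source used here says how reads shared by near-identical genes were counted. The 7 genes and the gene lists were chosen with earlier results of these data known.

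Counts were analysed with Python 3.11.15, numpy 2.4.6, scipy 1.17.1, pandas 2.3.3 and scanpy 1.11.5. Cells with fewer than 500 genes or more than 10% mitochondrial UMIs were left out (56 Cherry_positive and 50 Cherry_negative), as were 4 and 7 doublets called by Scrublet at an expected rate of 2%, so few that the caller cannot be taken to have worked. Both libraries were clustered together without batch correction, on 2000 variable genes excluding the 7, with 15 neighbours in 30 components, by leidenalg 0.10.2 (seed 0, resolution 1).

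A cluster took the class with the highest score, given at least 3 detected markers (in 10% of cells and at 10% of the highest cluster level). The score was the mean over a class's markers of the level in the cluster relative to the highest cluster level. Its 10 leading genes, of at least 50 CPM and ranked by fold with 10 CPM added, were then checked by broad lineage, such as mesenchyme or endothelium. The name was refused where markers from a different lineage outnumbered those from its own. Markers of other classes within the same lineage did not bar a name, so fibroblast and mural classes were not checked against each other here. After the clusters had been seen, leading genes were limited to those in at least 10% of cells, haemoglobin genes and widespread markers were disregarded, and clusters with a score of 0.6 or more for a second class were called mixed.

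A class was compared if both libraries held 50 of its cells or more. UMIs were summed over a class, CPM was taken over all UMIs of the class, and ratios carry the interval of the matching binomial share. Against 0 UMIs a limit of 3 counts was used. A gene was measured in a class from 10 UMIs in all, and counted as at least 2-fold higher from CPM with 0.5 added to each count. All 7 genes were named in each comparison. Other list genes were named where past 2-fold in alveolar fibroblasts or general capillary cells, with all ligands and receptors and Irf1; Gabarap, Atg7 in Car4 capillary cells and the Irf1 levels apart, genes inside 2-fold were only counted, and Gabarap and Atg7 were chosen after their values were seen. The 10 most similar genes were those with the highest correlation among genes of at least 100 UMIs. One gene that these rules name is counted in its lists but not reported here. Gbp6 (2 IDs) and Gbp11 (not matched) were left out of the list. Ratio intervals were tested on simulated data, but the outcome is not given here and is not used as support for them. Promoters were read with biopython 1.88 and figures drawn with matplotlib 3.10.9. Alternatives changed the cell filter, doublets, resolution, clustering genes, joint clustering, free RNA, scaling, single cells, depth per cell and the count minimum.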

Additional observations from a re-analysis of the deposited data

How the results depend on the processing

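Mesenchymal and general capillary ratios of the summed 7 genes stayed above 1 under every alternative run. Of all alternative values for single genes 477 were counted as the same within the counting interval, 22 as moved and 1 as reversed. Of the alternative values for the summed ratio 61 stayed within that interval and 11 moved. Of those for the number of genes at least 2-fold higher 8 stayed within 1.5 times and 10 moved. The summed Car4 capillary ratio crossed 1 in some runs without being counted as reversed. The single-gene counts therefore need not hold every change of direction. The summed ratio ran from 1.93 to 4.90 in alveolar fibroblasts, 3.05 to 3.50 in adventitial fibroblasts, 4.42 to 6.48 in myofibroblasts, 3.69 to 5.29 in pericytes, 1.25 to 2.37 in general capillary cells and 0.626 to 1.34 in Car4 capillary cells. The Car4 capillary ratio was 1.25 at resolution 0.5, 1.29 with interferon-inducible genes kept out of the clustering, 1.34 with the libraries clustered separately and 0.626 with 5% free RNA subtracted, so its direction depended on these settings; the last also turned the Car4 ratio of Iigp1 to 0.354. Separate clustering gave 2.01 in general capillary cells, TMM scaling gave 4.07 in alveolar fibroblasts, and leaving out the highest cell of each library gave 6.48 in myofibroblasts and 5.29 in pericytes. Of the alternatives chosen after seeing the data, leaving out cluster 5 gave 4.90 and clusters 5 and 9 gave 1.93 in alveolar fibroblasts, and leaving out cluster 12 gave 1.25 in general capillary cells. Beyond the cells removed, the cause was not tested. With minima of 1 and 30 UMIs the genes at least 2-fold higher numbered 1053 and 158 in adventitial fibroblasts (462 with 10), 1184 and 321 in myofibroblasts (664), 1326 and 139 in pericytes (426), 1495 and 206 in general capillary cells (498) and 1607 and 78 in Car4 capillary cells (436), since each minimum changes which genes are measured. TMM factors, as log2, were -0.12 for alveolar fibroblasts, -0.19 for myofibroblasts and -0.18 for pericytes, raising every ratio by that much, and genes higher and lower by 2-fold then numbered 941 and 924 (768 and 1139 without it), 890 and 759 (664 and 1084), and 575 and 416 (426 and 571). Where myofibroblasts or pericytes merged with another class or fell below 50 cells in a library, no value was had. No paired analysis was possible because each group is 1 library. Of the compared classes, Car4 capillary cells and adventitial fibroblasts rest on the fewest UMIs of the 7 genes.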

Other observations

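Classes too small to be compared also held family RNA. Mesothelial cells, which cover the lung surface, had a summed level of 2308 CPM in 11 Cherry_positive cells and 1727 CPM in 12 Cherry_negative cells, and Iigp1 stood at 784 CPM and 804 CPM. A cluster that mixed lymphatic endothelial and smooth muscle markers had 1750.2 CPM in 29 Cherry_positive cells and 109 CPM in 25 Cherry_negative cells, but which of its cells differ between the libraries was not examined. The carcinoma-like cluster had 587 CPM in 130 Cherry_positive cells and 526 CPM in 10 Cherry_negative cells, where a single Cherry_negative cell held 75% of the UMIs. The few AT2 cells of the Cherry_positive library, 22 in number, had 305 CPM, against 140.4 CPM in 448 Cherry_negative AT2 cells, and 1 Cherry_positive cell held 34.5% of their UMIs.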
